A study of Mus musculus with 4 samples.

Results

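Expression of 10 immediate early transcription factors was examined in mouse pancreatic islets at low and high glucose. These genes, *Fos*, *Fosb*, *Fosl2*, *Jun*, *Junb*, *Jund*, *Egr1*, *Nr4a1*, *Nr4a2* and *Nr4a3*, were chosen by symbol among the 24157 gene symbols and lncRNAs of the deposited RNA-seq table. Where a symbol had several entries, the one with the highest mean level was kept. Islets of wild type C57bl6 male mice, 3 months old, were pooled, cultured overnight in 11 mM glucose and held at 2.8 mM glucose for 2 h before stimulation. There were 2 libraries at 2.8 mM glucose and 2 at 16.8 mM glucose, called replicates 1 and 2, and 100 islets went into the total RNA of each library. The description of the design gives 12 h of stimulation for both concentrations, whereas in the sample labels the time is 2 h at 2.8 mM and 12 h at 16.8 mM, so time and glucose cannot be told apart if the labels are right. Because all islets came from 1 pool, the p-values measure only the spread between these libraries and not that between mice. An exact permutation test of 2 libraries against 2 cannot give a two-sided p below 0.333.

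Immediate early genes are switched on by existing transcription factors within minutes of a stimulus, without the need for protein synthesis. The libraries here were taken hours into the incubation and none before it, so that first response was not measured. Rises and falls below are differences between the concentrations. In beta cells, glucose closes potassium channels, and the calcium entry that follows activates kinases that act on CREB and on the serum response factor, both of which bind the promoters of these genes. FOS and JUN proteins pair through leucine zippers to form AP-1, a dimer that FOS proteins cannot form alone. EGR1 is a zinc finger factor, and the NR4A proteins are orphan nuclear receptors whose activity is set mainly by their abundance.

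The promoters of the members are given here because the data describe which of these genes were higher at 16.8 mM glucose. RefSeq promoters (build GRCm38.p6, 250 bases before to 50 bases after the annotated start) were matched for 9 of the 10 members, all but *Egr1*. Exact matches on either strand were searched for. TGACG, the core of the cAMP response element (read as CGTCA on the other strand), was found in 6 of the 9 promoters, those of *Fos*, *Fosb*, *Junb* and the NR4A members, against 20.8% of the 32851 promoters in the table. It was not found in those of *Fosl2*, *Jun* and *Jund*. The GC box GGGCGG was found in 7 of the 9 and in 35.7% of all promoters, and TATAAA in 3 of the 9 and in 13.6% of all. None of the 9 held the full response element TGACGTCA, which contains this core and lies in 1.79% of all promoters. Nor did any hold the AP-1 site TGACTCA (5.2% of all), the CArG box (1.63%), the EGR site GCGTGGGCG, which shares bases with the GC box (0.612%), or the NR4A site AAAGGTCA (1.51%). Sites further than 250 bases before the start, sites with a differing base and the promoter of *Egr1* were not searched. A site missing here can thus still be present in the gene. The 4 promoters below belong to members that were higher at 16.8 mM and held the core. Capitals mark TGACG or CGTCA, and TATAAA or TTTATA. They lie at chr12:85473640-85473939 on the plus strand (*Fos*), chr8:84978699-84978998 on the minus strand (*Junb*), chr15:101266596-101266895 on the plus strand (*Nr4a1*) and chr2:57123954-57124253 on the minus strand (*Nr4a2*).
Fos: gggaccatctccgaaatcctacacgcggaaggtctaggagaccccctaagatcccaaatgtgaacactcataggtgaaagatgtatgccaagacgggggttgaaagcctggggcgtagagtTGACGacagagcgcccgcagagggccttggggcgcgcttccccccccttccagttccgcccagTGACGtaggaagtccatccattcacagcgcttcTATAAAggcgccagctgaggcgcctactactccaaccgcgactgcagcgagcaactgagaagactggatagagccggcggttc
Junb: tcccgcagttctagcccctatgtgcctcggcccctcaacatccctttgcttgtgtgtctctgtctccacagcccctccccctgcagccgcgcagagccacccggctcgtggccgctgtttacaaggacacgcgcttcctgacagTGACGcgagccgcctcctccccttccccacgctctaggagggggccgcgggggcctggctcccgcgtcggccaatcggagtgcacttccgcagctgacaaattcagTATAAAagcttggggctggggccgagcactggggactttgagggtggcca
Nr4a1: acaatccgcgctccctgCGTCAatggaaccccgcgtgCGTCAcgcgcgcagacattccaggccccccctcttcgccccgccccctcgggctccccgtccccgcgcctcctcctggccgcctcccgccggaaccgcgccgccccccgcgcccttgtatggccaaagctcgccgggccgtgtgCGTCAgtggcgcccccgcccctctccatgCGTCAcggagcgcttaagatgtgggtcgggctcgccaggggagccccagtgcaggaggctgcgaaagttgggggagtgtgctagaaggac
Nr4a2: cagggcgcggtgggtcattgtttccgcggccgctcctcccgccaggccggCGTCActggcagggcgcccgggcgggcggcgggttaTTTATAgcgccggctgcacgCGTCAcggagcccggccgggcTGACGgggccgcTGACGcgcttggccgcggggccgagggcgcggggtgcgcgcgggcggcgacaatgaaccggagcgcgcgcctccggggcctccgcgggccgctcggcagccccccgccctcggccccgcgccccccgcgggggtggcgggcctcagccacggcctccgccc
With the annotated start as base 0, the cores of *Fos* began at -129 and -66, and its TATAAA at -33. *Junb* had 1 core, at -106, and TATAAA at 0. *Nr4a1* held 4 on the other strand, at -233, -213, -69 and -40. *Nr4a2* also held 4, at -200, -144, -123 and -111, and TTTATA at -164. These matches are a description of the letters in these windows and were not tested against binding.

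The table holds RPKM, that is reads scaled to a length and to the depth of the library. The length that fits the values is the span of a gene with its introns, not that of its exons. Depth, recovered from the steps of the low values, lay between 50810000 and 60720000 reads per library, and 1 read in 1 kb was worth 0.0165 to 0.0197 RPKM. Log2 values of the 7867 transcripts tested below correlated with a Pearson's r of 0.98 between replicates and of 0.927 to 0.939 across concentrations. A transcript was tested where its mean over the 4 libraries was at least 1 RPKM, with limma on log2(RPKM + 0.5) and Benjamini-Hochberg adjustment over all 7867 transcripts tested. Fold changes on this scale understate those of low transcripts. Of the transcripts tested, 33.4% were called at an adjusted p under 0.05, 10.7% higher and 22.8% lower at 16.8 mM, and the median log2 fold change was -0.11. Both 16.8 mM libraries lay above both 2.8 mM libraries in 22.2% of the transcripts tested and below both in 48.3%, and in 20.6% and 35.8% of all 28047 transcripts.

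Whole islets hold several cell types, so fewer cells of a type and less RNA per cell cannot be told apart. The beta cell markers, led by *Ins2*, summed to 22910 and 20560 RPKM at 2.8 mM and 43730 and 40960 RPKM at 16.8 mM, and 6 of 8 were called higher. In limma without the minimum of 1 RPKM, *Pdx1* and *Mafa* kept their calls (adjusted p = 0.0365 and 0.0413). *Ins1*, *Ins2*, *Iapp* and *Ucn3* lost theirs (limma adjusted p = 0.0994, 0.622, 0.125 and 0.122). The sum of the 6 acinar markers, digestive enzymes of the exocrine pancreas, was 97.4 and 278 RPKM at 2.8 mM and 234 and 483 RPKM at 16.8 mM. The endothelial sum lay between 2.78 and 4.47 RPKM and the stromal sum between 2.34 and 4.11 RPKM. The macrophage and leukocyte sum lay between 10.9 and 16.2 RPKM, and all of these sums overlapped between the concentrations. Of the endothelial markers, *Pecam1*, *Cdh5* and *Flt1* were higher in both 16.8 mM libraries than in both 2.8 mM libraries, but were too low to be tested. *Kdr*, *Plvap* and *Esam* overlapped. Of the macrophage and leukocyte markers *Cd14* alone was called, higher at 16.8 mM. The delta cell sum, mostly *Sst*, was 598 and 447 RPKM at 2.8 mM and 703 and 695 RPKM at 16.8 mM, without overlap, though none of its 3 markers was called. The alpha and PP sums overlapped between the concentrations. The duct sum, led by *Krt7*, was 21.9 and 22.9 RPKM at 2.8 mM and 18.2 and 20.7 RPKM at 16.8 mM, without overlap. *Krt7* was called lower at 16.8 mM (limma adjusted p = 0.015), a call lost without the minimum (limma adjusted p = 0.0541). *Krt19* went the other way, at 1.27 and 3.96 against 4.31 and 7.56 RPKM, and was not called (limma adjusted p = 0.0728). *Sox9*, at 0.0956 and 0.132 against 0.113 and 0.280 RPKM, overlapped between the concentrations and was not tested. No marker was listed at 0. The part of these markers in the values of the members was not tested.

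At 16.8 mM glucose, *Egr1*, *Fos*, *Nr4a1*, *Nr4a2*, *Fosl2* and *Junb* were higher than at 2.8 mM, by 2.54 to 9.00 times in mean RPKM. *Jun* and *Jund* were tested and not called, and *Fosb* and *Nr4a3* were too low to be tested. Both 16.8 mM libraries lay above both 2.8 mM libraries in 8 of the 10 members (20.6% of all transcripts), below them in 1, *Jund* (35.8% of all transcripts), and overlapped them in 1, *Fosb*. *Fos*, *Fosl2*, *Nr4a1* and *Nr4a2* had means under 1 RPKM at 2.8 mM and reached the minimum only through the 16.8 mM libraries, so that the number of members called among those tested says little. Without a minimum, over 28047 transcripts, 2.96% were called higher and 6.17% lower, and 7 members were higher, the 6 above with adjusted p between 0.0357 and 0.0490 and *Nr4a3*.

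**Figure D1:**
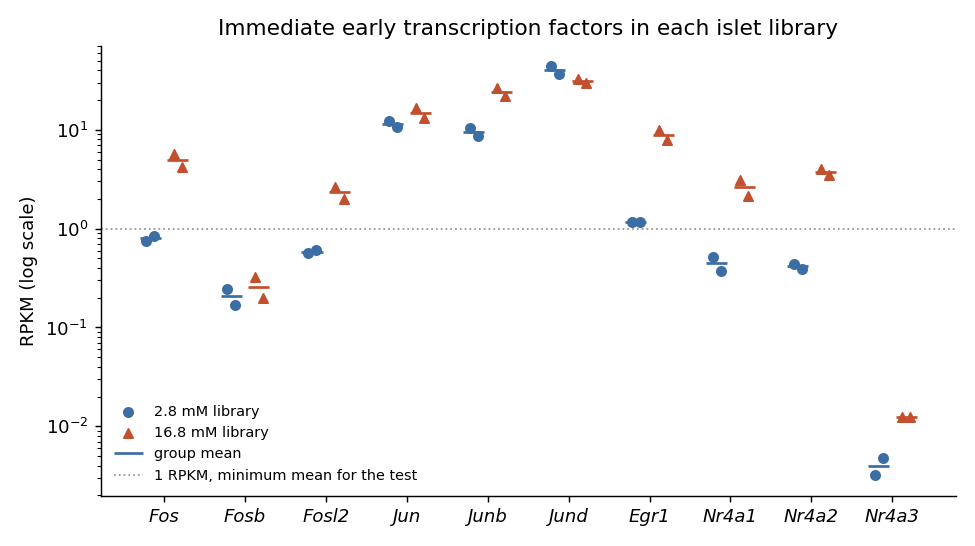
RPKM of each member (log axis) in the 2 libraries at 2.8 mM (circles) and the 2 at 16.8 mM (triangles), replicate 1 to the left in each pair, with the group mean as a bar and the minimum mean for the test as a dotted line. The 16.8 mM triangles lie above the circles for 8 members, *Jund* lies the other way and *Fosb* overlaps.

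Among the FOS proteins, the partners in AP-1 that need a JUN protein, *Fos* itself was at 0.757 and 0.846 RPKM in replicates 1 and 2 at 2.8 mM and at 5.70 and 4.16 RPKM at 16.8 mM. Both 16.8 mM libraries were thus far above both 2.8 mM libraries. Its mean rose from 0.801 ± 0.0629 to 4.93 ± 1.09 RPKM (SD, n = 2 each), 6.15 times, and the log2 fold change was 2.05 (SE, the standard error, 0.14, limma adjusted p = 0.000219). *Fos* lies on chr12:86814840-86818223 (NCBIM37, plus strand, 4 exons), and its values stood for about 150 and 149 reads in the 2.8 mM libraries, against 1171 and 714 in the 16.8 mM libraries.

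*Fosl2* codes for FRA2, a FOS protein that lacks the strong activation domain of FOS. It was at 0.564 and 0.604 RPKM at 2.8 mM and 2.65 and 2.01 RPKM at 16.8 mM, without overlap. The mean rose 3.99 times, from 0.584 ± 0.0288 to 2.33 ± 0.455 RPKM (SD, n = 2 each), and the log2 fold change was 1.37 (SE 0.12, limma adjusted p = 0.00049). The gene (chr5:32438845-32460204, plus strand) spans 21360 bases with 5855 bases of exons, the largest difference among the FOS members.

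*Fosb*, whose long-lived splice form accumulates in neurons on repeated stimulation, was low in all 4 libraries. It stood at 0.244 and 0.168 RPKM at 2.8 mM and at 0.321 and 0.198 RPKM at 16.8 mM, so the groups overlapped. With about 105 and 64 reads against 143 and 74 reads, the difference, 1.26 times in mean RPKM, was within the spread between replicates (adjusted p = 0.626 in limma without a minimum). *Fosb* lies on chr7:19888070-19895394 on the minus strand. *Fosl1*, which codes for the remaining FOS protein FRA1, was also low, at 0.260 and 0.192 RPKM against 0.374 and 0.265 RPKM, and was not tested.

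Summed over *Fos*, *Fosb* and *Fosl2*, the FOS family stood at 1.57 and 1.62 RPKM at 2.8 mM and 8.67 and 6.36 RPKM at 16.8 mM, 4.72 times higher. *Fos* took 48.4% and 52.3% of that sum at 2.8 mM and 65.7% and 65.3% at 16.8 mM. The share of *Fosb* was 15.6% and 10.4% at 2.8 mM and 3.70% and 3.12% at 16.8 mM, while that of *Fosl2* was 36.0% and 37.4% and then 30.6% and 31.5%. Within the sum, then, *Fos* held more and *Fosb* less in both 16.8 mM libraries than in either 2.8 mM library. These shares rest on the scale of the table. Since the deposited RPKM fit spans with introns, a gene with long introns is given a lower value. Taken per length of exons, mean *Fosl2* was 2.13 RPKM at 2.8 mM and 8.49 RPKM at 16.8 mM and lay above *Fos*, at 1.29 and 7.91 RPKM. Values per length of exons, here and below, take every read to come from exons, which was not tested. The share of *Fos* per length of exons was 32.4% and 34.9% at 2.8 mM and 47.1% and 46.4% at 16.8 mM.

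The JUN genes, which can pair with each other as well as with FOS proteins, each consist of 1 exon, so span and exon length are the same for them. *Junb*, which often opposes JUN on shared targets, was at 10.5 and 8.63 RPKM at 2.8 mM and 26.4 and 22.1 RPKM at 16.8 mM, well apart. Its mean rose from 9.56 ± 1.31 to 24.3 ± 3.06 RPKM (SD, n = 2 each), 2.54 times, a log2 fold change of 1.30 (SE 0.15, limma adjusted p = 0.00139). *Junb* (chr8:87500811-87502617, minus strand) held about 1107 and 810 reads, against 2900 and 2029 at the higher glucose, and its level at 2.8 mM was clear of the minimum.

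*Jun*, the founding member of the family, was at 12.1 and 10.7 RPKM at 2.8 mM and 16.5 and 13.3 RPKM at 16.8 mM. The groups did not overlap, but the lower 16.8 mM library lay close to the higher 2.8 mM library. The log2 fold change was 0.37 (SE 0.15) and was not called (limma adjusted p = 0.0926). Several alternatives called it: the log2 fold change was 0.45 with each library centred on its median (adjusted p = 0.025) and 0.46 without replicate 1 at 2.8 mM (adjusted p = 0.0264), and the adjusted p was 0.0397 with a minimum of 1 RPKM in every library and 0.0293 with voom on rebuilt reads. Over all alternatives the adjusted p lay between 0.00258 and 0.436. *Jun* (chr4:94715725-94718913, minus strand) overlaps 689 bases of *BC042782* on the opposite strand, and the sources used here do not say if reads were counted by strand.

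*Jund* is the JUN gene least tied to stimulation and is expressed in most resting cells. It was the most abundant member, at 43.8 and 36.3 RPKM at 2.8 mM and 32.6 and 30.0 RPKM at 16.8 mM. Both 16.8 mM libraries were the lower ones, with a mean of 31.3 ± 1.85 against 40.1 ± 5.24 RPKM (SD, n = 2 each), 0.782 times. The log2 fold change of -0.34 (SE 0.14) was not called (limma adjusted p = 0.105). Without replicate 2 at 2.8 mM it was -0.48 (adjusted p = 0.017), after quantile normalization -0.36 (adjusted p = 0.0392), with voom -0.35 (adjusted p = 0.0252), and over all alternatives the adjusted p lay between 0.00364 and 0.429. The 2 entries of *Jund* (chr8:73221638-73224515, plus strand) were identical and were used once, and the gene overlaps 543 bases of *Gm11175* on the opposite strand.

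The JUN family as a whole differed little, at 66.4 and 55.7 RPKM at 2.8 mM and 75.6 and 65.4 RPKM at 16.8 mM, with overlap between the groups. Its composition differed more. *Jund* made up 65.9% and 65.3% of the sum at 2.8 mM and 43.2% and 45.9% at 16.8 mM, and *Junb* 15.8% and 15.5% against 35.0% and 33.8%. The share of *Jun* was 18.3% and 19.2% at 2.8 mM and 21.9% and 20.3% at 16.8 mM. There were thus 0.240 and 0.237 RPKM of *Junb* for each RPKM of *Jund* at 2.8 mM and 0.810 and 0.737 at 16.8 mM, and a ratio within a library does not depend on its scaling. *Junb* lay below *Jun* in both 2.8 mM libraries (ratios 0.864 and 0.809) and above it in both 16.8 mM libraries (1.60 and 1.67). For each RPKM of *Junb* there were 0.0722 and 0.0980 RPKM of *Fos* at 2.8 mM and 0.216 and 0.188 at 16.8 mM, so the FOS partner stayed the scarcer one at both concentrations on this scale.

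**Figure D2:**
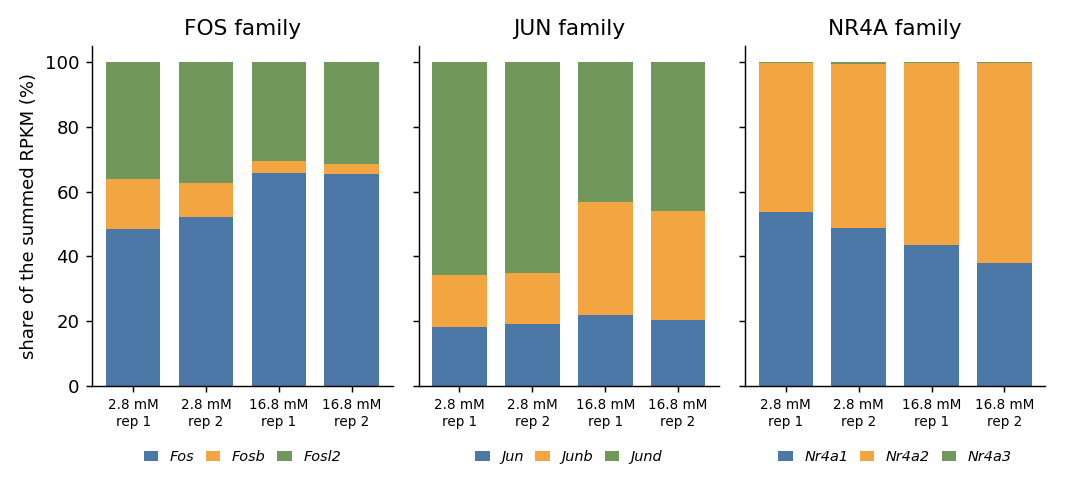
Share of each gene in the summed RPKM of its family (%, stacked to 100%) in each of the 4 libraries. *Jund* gives way from 65.9% and 65.3% to 43.2% and 45.9% of the JUN sum while *Junb* goes from 15.8% and 15.5% to 35.0% and 33.8%, and the replicates of a concentration resemble each other.

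*Egr1* showed the largest log2 fold change of the members with 0.5 RPKM added before the log2. With 0.1 RPKM added, that of *Nr4a2* was the larger (2.895 against 2.815), as it was with nothing added (3.17 against 2.93). *Egr1* was at 1.17 RPKM in both 2.8 mM libraries and at 9.88 and 7.90 RPKM at 16.8 mM. The mean rose 7.60 times, from 1.17 ± 0.0017 to 8.89 ± 1.40 RPKM (SD, n = 2 each), and the log2 fold change was 2.48 (SE 0.12, limma adjusted p = 6.1e-05). Only 23 of the 7867 transcripts tested, itself included, had a log2 fold change at least as large. The values stood for about 258 and 230 reads, against 2265 and 1515 at the higher glucose, over a gene of 2 exons on the plus strand of chr18:35020861-35024638 (NCBIM37), which overlaps 200 bases of *Gm17507* on the opposite strand.

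The other EGR genes were low in these islets. *Egr2*, *Egr3* and *Egr4* had means of 0.0631, 0.0347 and 0.0415 RPKM at 2.8 mM and 0.122, 0.0512 and 0.0177 RPKM at 16.8 mM, and none was tested. *Nab2*, a corepressor that binds EGR1 and is itself one of its targets, was at 0.946 and 0.842 RPKM at 2.8 mM and 1.58 and 1.29 RPKM at 16.8 mM, and was called higher with a log2 fold change of 0.47 (SE 0.10, limma adjusted p = 0.0115). It reached the minimum only through the 16.8 mM libraries, and the call was lost without a minimum (adjusted p = 0.0926). Its relative *Nab1*, at 0.730 and 0.688 against 0.616 and 0.536 RPKM, was under the minimum.

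*Nr4a2* (NURR1) showed the largest ratio of means among the members called. It stood at 0.442 and 0.389 RPKM at 2.8 mM and 4.03 and 3.46 RPKM at 16.8 mM. The rise of the mean from 0.416 ± 0.0376 to 3.74 ± 0.408 RPKM (SD, n = 2 each) was 9.00 times, and the log2 fold change was 2.21 (SE 0.10, limma adjusted p = 3.33e-05). Since the 2.8 mM mean is under the 0.5 RPKM added before the log2, this understates the plain ratio, which is 3.17 on the log2 scale. The gene (chr2:56959241-56967449, minus strand, 8 exons) held about 212 and 166 reads against 2009 and 1441 reads. A further RefSeq entry of *Nr4a2* was at 0.361 and 0.317 RPKM at 2.8 mM and 2.41 and 2.06 RPKM at 16.8 mM, 6.60 times higher. Both entries are of the same gene and are not independent.

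*Nr4a1* (NUR77) was at 0.517 and 0.375 RPKM at 2.8 mM and 3.10 and 2.12 RPKM at 16.8 mM. Its mean rose 5.85 times, from 0.446 ± 0.0998 to 2.61 ± 0.697 RPKM (SD, n = 2 each), a log2 fold change of 1.70 (SE 0.15, limma adjusted p = 0.000595). It lies on chr15:101097277-101105223 on the plus strand, with about 240 and 155 reads, against 1497 and 855.

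*Nr4a3* (NOR1) was near the floor of detection. Its 0.0032 and 0.0048 RPKM at 2.8 mM and 0.0123 RPKM in both 16.8 mM libraries came from about 8 and 10 reads against 31 and 26 reads over a span of 41293 bases (chr4:48058025-48099317, plus strand). The 16.8 mM libraries were the higher ones, but the gene was not in the tested set. In the fit without a minimum its log2 fold change was 0.02 (adjusted p = 0.0411), since the 0.5 RPKM added is far above its values.

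The NR4A sum was 0.962 and 0.769 RPKM at 2.8 mM and 7.15 and 5.58 RPKM at 16.8 mM, 7.35 times higher, the largest ratio of the 3 families. *Nr4a2* took 46.0% and 50.6% of it at 2.8 mM and 56.4% and 61.9% at 16.8 mM. For each RPKM of *Nr4a1* there were 0.856 and 1.04 RPKM of *Nr4a2* at 2.8 mM and 1.30 and 1.63 at 16.8 mM, so *Nr4a2* was the higher of the pair in both 16.8 mM libraries and in 1 of the 2.8 mM libraries on this scale. Per length of exons these ratios were 0.613 and 0.743 at 2.8 mM and 0.931 and 1.17 at 16.8 mM, so that *Nr4a1* was the higher in 3 of the 4 libraries. On either scale the ratio was larger in both 16.8 mM libraries than in both 2.8 mM libraries.

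**Figure D3:**
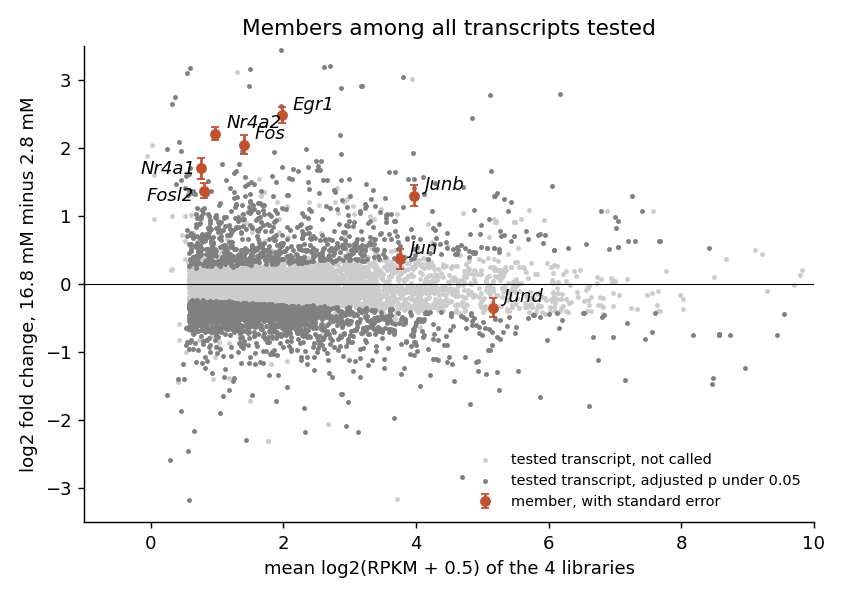
Log2 fold change (16.8 mM minus 2.8 mM) of each transcript tested against its mean log2(RPKM + 0.5), with called transcripts in dark grey and the 8 members tested in red with their standard errors; 10 transcripts lie outside the axes. *Egr1*, *Nr4a2*, *Fos*, *Nr4a1*, *Fosl2* and *Junb* lie above the bulk of the transcripts, and *Jun* and *Jund* lie within it.

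Ordered by the deposited RPKM at 2.8 mM glucose, *Jund*, *Jun* and *Junb* came first, followed by *Egr1*, *Fos*, *Fosl2*, *Nr4a1*, *Nr4a2*, *Fosb* and *Nr4a3*. *Nr4a1* and *Nr4a2* overlapped between libraries and did not differ beyond their spread. At 16.8 mM the order was *Jund*, *Junb*, *Jun*, *Egr1*, *Fos*, *Nr4a2*, *Nr4a1*, *Fosl2*, *Fosb* and *Nr4a3*, with overlap between *Nr4a1* and *Fosl2* only. Below the JUN genes the order depended on the length used. Per length of exons it was at 2.8 mM *Fosl2* (2.13 RPKM), *Nr4a1* (1.43), *Egr1* (1.43), *Fos* (1.29) and *Nr4a2* (0.957), and the 4 members that followed *Egr1* at 16.8 mM lay close together, with means of 8.61 RPKM for *Nr4a2*, 8.49 RPKM for *Fosl2*, 8.38 RPKM for *Nr4a1* and 7.91 RPKM for *Fos*. Replicate 1 was above replicate 2 in 6 of the 10 members at 2.8 mM and in 9 at 16.8 mM. Replicate 1 was also the deeper library at each concentration, with 58470000 against 51960000 reads at 2.8 mM and 60720000 against 50810000 at 16.8 mM, and the part of depth in this was not tested.

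The 3 tested genes whose centred log2 values over the 4 libraries lay nearest those of *Egr1* were *Crybb3* (distance 0.154), an lncRNA on chromosome X (0.174) and *Nr4a2* (0.291). *Crybb3*, a crystallin gene, was at 1.24 and 1.01 RPKM at 2.8 mM and 9.49 and 7.82 RPKM at 16.8 mM. With 4 libraries such likeness is a description. Of the genes next to the members, *Tmed10*, *Rtn2*, *Mysm1*, *Prdx2*, *Lsm4* and *Reep2* were tested and had log2 fold changes between -0.17 and 0.22, and none was called.

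Genes related to the members by function were read from the same fit, members left out. Their counts stand against 10.7% higher and 22.8% lower among all transcripts tested, or 2.96% and 6.17% without a minimum, and some genes reached the minimum only through the group in which they were high. Of 11 other bZIP factors that can join AP-1 dimers or bind similar sites, 4 were tested and 1 was called, *Maff*, a small MAF protein. It was at 1.29 and 1.17 RPKM at 2.8 mM and 2.67 and 2.09 RPKM at 16.8 mM, which gave a log2 fold change of 0.73 (SE 0.11, limma adjusted p = 0.00413). The median of the 4 was -0.12, near that of all transcripts. The call of *Maff* was lost without a minimum (adjusted p = 0.0715).

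Other immediate early genes, 25 of 32 of which were tested, had 11 called higher and 2 lower, with a median log2 fold change of 0.36 against -0.11 for all transcripts. Of these, *Crem*, *Sik1* and *Zfp36l1* reached the minimum only through the 16.8 mM libraries and *Myc* only through the 2.8 mM libraries. Without a minimum 4 of the 32 were called higher and 1 lower. *Ier3*, which codes for a regulator of cell survival, was at 5.81 and 6.94 RPKM at 2.8 mM and 21.7 and 20.2 RPKM at 16.8 mM, and rose by a log2 fold change of 1.64 (limma adjusted p = 0.000403). *Crem*, whose short form ICER represses cAMP-responsive promoters, went from 0.890 and 0.815 RPKM to 3.88 and 3.55 RPKM, also 1.64 on the log2 scale (limma adjusted p = 8.65e-05). These values are of 1 of the 16 entries of *Crem*, that with the highest mean, and which form it stands for was not determined. *Sik1*, a kinase that keeps CREB coactivators out of the nucleus, went from 0.971 and 0.779 RPKM to 2.66 and 2.49 RPKM, a log2 fold change of 1.16 (adjusted p = 0.00046). The 2 that fell were *Myc*, a regulator of growth, from 3.51 and 3.24 RPKM to 1.04 and 0.933 RPKM (log2 fold change -1.38, adjusted p = 0.000164), and *Zfp36l2*, which codes for a protein that binds AU-rich mRNA (-0.44, adjusted p = 0.0231). The call of *Zfp36l2* was lost without a minimum (adjusted p = 0.0681), and with adjusted p of 0.0839, 0.0551 and 0.115 without replicate 1 at 2.8 mM, replicate 1 at 16.8 mM or replicate 2 at 16.8 mM.

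Phosphatases that switch off MAP kinases are themselves induced by these kinases. Of 9 listed, 5 were tested, 4 were higher and 1 lower, with a median of 0.79. *Dusp5* reached the minimum only through the 16.8 mM libraries. Without a minimum 2 of the 9 were called higher in limma, *Dusp5* and *Dusp10*, and 0 lower. *Dusp10* was too low for the main test. *Dusp1*, *Dusp4*, *Dusp6* and *Dusp8* lost their calls (limma adjusted p = 0.0652, 0.0698, 0.0908 and 0.0970). *Dusp1* was at 3.35 and 3.04 RPKM at 2.8 mM and 7.70 and 5.88 RPKM at 16.8 mM (log2 fold change 0.97, adjusted p = 0.00303 from limma). *Dusp6*, which acts on ERK, had a log2 fold change of 0.84 (adjusted p = 0.00562) and *Dusp5*, a nuclear ERK phosphatase, of 0.79 (adjusted p = 0.00079). *Dusp8*, which acts on JNK and p38, was the one that fell, its log2 fold change being -0.54 (adjusted p = 0.0108).

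Upstream of the members, none of the 11 tested genes among 31 listed CREB, SRF, TCF and MEF2 factors, cofactors and kinases was called higher and 4 were lower, with a median of -0.06. At an unadjusted p under 0.05 the number higher was also 0 of the 11, as it was with voom. Over the 29 listed genes that voom could test, it called 1 higher, *Mapk10*, named after its values were seen, and others lower. Among all 16987 transcripts in the voom fit, 2136 were called higher and 4577 lower. Without a minimum 1 of the 31 was called higher and 3 lower, among them *Ppp3ca*, which was too low for the main test. Of the 4 lower in the main fit, 2 kept their calls without a minimum, and *Mapk9* (limma adjusted p = 0.0576) and *Srf* lost theirs. *Crtc2*, a CREB coactivator, fell by 0.48 on the log2 scale, from 3.79 and 3.61 RPKM to 2.58 and 2.45 RPKM (limma adjusted p = 0.00821). *Srf*, the serum response factor, fell by 0.40 (adjusted p = 0.0305), and *Ppp3cb*, which codes for a catalytic subunit of calcineurin, by 0.39 (adjusted p = 0.0111). The call of *Srf* was lost without a minimum (adjusted p = 0.115), without replicate 1 at 2.8 mM (0.129), without replicate 2 at 16.8 mM (0.156) and with the library size taken without the 10 most abundant genes (0.0511).

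**Figure D4:**
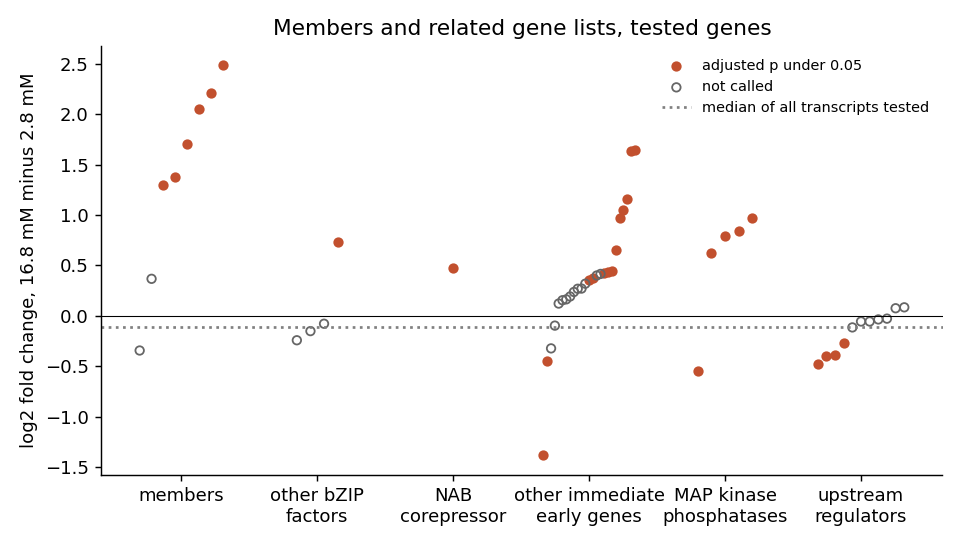
Log2 fold change (16.8 mM minus 2.8 mM) of each tested member and of each tested gene of the related lists, filled where the adjusted p was under 0.05, with the median of all transcripts tested (-0.11) as a dotted line. The 5 phosphatases split 4 to 1, and the upstream regulators lie between -0.48 and 0.08.

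The fold changes of the called members held their direction in every alternative run. With each library left out in turn, the log2 fold change lay between 2.33 and 2.64 for *Egr1*, 2.11 and 2.31 for *Nr4a2*, and 1.84 and 2.25 for *Fos*. For *Nr4a1* it lay between 1.47 and 1.93, for *Fosl2* between 1.21 and 1.54, and for *Junb* between 1.17 and 1.43. *Jun* kept a positive value, from 0.21 to 0.52, and *Jund* a negative one, from -0.48 to -0.21. The value of the low genes moved more with the amount added before the log2 than with any library. With no amount added, the log2 ratio of mean RPKM was 3.17 for *Nr4a2*, 2.93 for *Egr1*, 2.62 for *Fos*, 2.55 for *Nr4a1* and 1.99 for *Fosl2*.

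**Figure D5:**
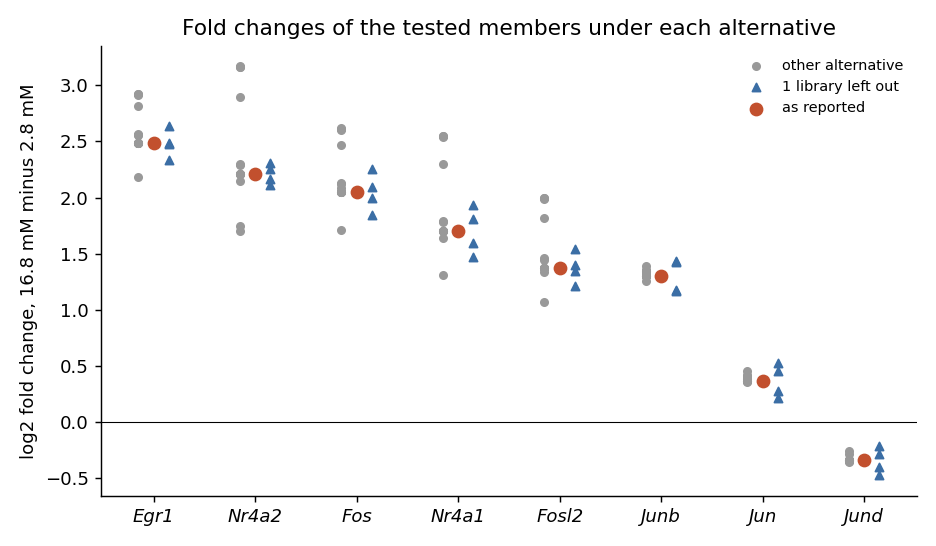
Log2 fold change (16.8 mM minus 2.8 mM) of each tested member as reported (red), with 1 library left out (blue triangles) and under the other alternatives (grey). All points of a member lie on 1 side of 0, and those of *Jun* (0.21 to 0.52) and *Jund* (-0.48 to -0.21) lie nearest to it.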

How the data were processed

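TruSeq v2 libraries were made from total RNA of islets and sequenced, 2 per glucose concentration, grouped by the sample labels. The authors deposited 1 table of RPKM values, normalized to transcript length and library depth, for RefSeq transcripts and lncRNAs (33923 entries). The submitters' processing notes list STAR, bedtools, DESeq and mm9. All columns of sample values were used.

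The table holds no counts, so the count test named in the design was not run. Identical entries of a gene were merged (28047 left), values were taken to log2(RPKM + 0.5), and entries whose mean reached 1 RPKM entered limma 3.58.1 (R 4.3.3; variance trend, empirical Bayes, Benjamini-Hochberg adjustment, threshold 0.05). The fit was tested on simulated data. Depth was recovered from low values: 78.0% to 78.7% of those under 60 reads were whole within 0.1 reads, and for genes of several exons 80.6% to 81.2% were whole by span against 16.3% to 18.4% by exons. Read numbers are approximate because GENCODE vM1 spans (NCBIM37) stood in for those used by the authors. The voom alternative used reads rebuilt in this way, at least 20 on average. Other steps used Python 3.11.15, pandas 2.3.3, numpy 2.4.6 and matplotlib 3.10.9.

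Members, lists and markers were chosen with earlier results of these data known. Named were all members, in each list up to 3 called genes with the largest rises and up to 3 with the largest falls, every gene of a list of at most 4, the 3 genes nearest in pattern to *Egr1* and *Jund* (those for *Jund* are not reported here), and neighbouring genes. The other EGR genes, *Nab1*, *Zfp36l1*, *Dusp4*, *Dusp10*, *Mapk9*, *Ppp3ca*, *Cd14*, *Krt7*, *Krt19* and *Sox9* were named after their values were seen. So were the single beta cell and endothelial markers. Protein sequences were not analysed here.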

Additional observations from a re-analysis of the deposited data

How the results depend on the processing

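Of the 7867 transcripts tested, 2628 were called (838 higher, 1790 lower). The count was 1191 at an adjusted p under 0.01, 6713 of 16987 with voom on rebuilt reads, and 1825 to 2579 with 1 library left out. The split of higher and lower calls moved with the scaling, to 1576 and 2154 after quantile normalization, 1662 and 2103 after median centring, and 944 and 1383 with the library size taken without the 10 most abundant genes. Of the 10 members, 6 were called, 6 to 7 with 1 library left out, and 3 (*Jun*, *Junb* and *Egr1*) with a minimum of 1 RPKM in every library, which *Fos*, *Fosl2*, *Nr4a1* and *Nr4a2* do not reach. *Jun* was called in 7 of 18 alternatives and *Jund* in 5 of 18. The other 6 kept their calls in every alternative in which they were tested. The plain ratio of means, 1 of these alternatives, has no p-value and cannot make a call. The calls of *Jun* and *Jund* include those of the fits with the replicate block described below.

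The libraries share replicate numbers, and same-numbered libraries departed from the means of their groups in the same direction (correlation 0.31), but nothing in the labels says that a number marks a shared batch. With this number as a replicate block, 4067 transcripts and 8 members were called, *Jun* (adjusted p = 0.0255) and *Jund* (0.0351) among them, and 9451 transcripts with voom and the block, an alternative chosen after seeing the data, as were the plain ratio of means and the exon lengths. *Nr4a3*, with 8 to 31 reads per library, is the member with the least depth behind it.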
